A study of Mus musculus with 8 samples.

Results

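The imprinted growth genes H19, Igf2, Dlk1, Meg3, Cdkn1c, Peg3, Plagl1, Mest, Grb10 and Igf2r were followed in RNA sequencing libraries of mouse fibro/adipogenic progenitors (FAPs). The 10 genes were taken by mouse symbol from the 37991 genes of the deposited tables, as well-known members of the network of imprinted genes that acts on growth. FAPs are mesenchymal cells of skeletal muscle that can form fibroblasts and adipocytes. They were purified from the tibialis anterior, a muscle of the lower leg, of mice of mixed background on day 3 after glycerol was given to injure the muscle. The FAP-ctrl group (5 libraries) was taken from wild type muscle, and FAP-no cilia cells carried a floxed Ift88 allele that had been deleted conditionally to remove the primary cilium (3 libraries). Both groups had the injury, no uninjured library was analysed here, and the Cre driver, the age of the mice and any pooling of animals are not given in the labels. The series concerns Hedgehog signalling at the cilium and the formation of fat after injury, and the comparison asks how these genes stood in FAPs without cilia.

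Imprinted genes are transcribed mainly from the copy inherited from a given parent, under the control of regions that are methylated differently in sperm and egg. Many paternally expressed genes promote growth and many maternally expressed genes restrain it, and a set of them is coexpressed in growing tissue and declines after birth. In muscle and fat, Igf2 encodes a growth factor, Igf2r the receptor that clears it, Grb10 an adaptor that restrains the insulin and IGF receptors, Cdkn1c an inhibitor of cyclin-dependent kinases and Dlk1 a membrane protein known to hold back adipocyte formation. H19 and Meg3 are maternally expressed long noncoding RNAs, Plagl1 and Peg3 encode zinc finger proteins, and Mest encodes an enzyme-like protein of the alpha/beta hydrolase fold.

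Reads assigned to genes came to 25.2 to 43.9 M in FAP-ctrl and 15.3 to 29.5 M in FAP-no cilia. Ift88 stood at 457 to 594 normalized reads in FAP-ctrl against 195 to 322 in FAP-no cilia, so the groups did not overlap in the deleted gene. By Xist and Y-linked genes, FAP-ctrl 1 and 2 and all 3 FAP-no cilia libraries came from males and FAP-ctrl 3, 4 and 5 from females. The FAP marker Pdgfra stood at 33773 to 51005 normalized reads in FAP-ctrl, against 39583 to 43349 in FAP-no cilia. Other FAP markers were less even: Ly6a ranged from 23649 to 74893 in FAP-ctrl, and Thy1 was higher (5897 to 7575 against 8608 to 9590) and Lum lower (28540 to 34473 against 26763 to 27884) in FAP-no cilia without overlap. DESeq2 called Thy1 (adjusted p = 0.0156) and not Lum (adjusted p = 0.358), both named after their values were seen. The satellite cell markers Pax7 and Myf5 did not exceed 5.25 and 9.63 normalized reads in any library. As these are bulk libraries, fewer cells that express a gene and less of its RNA per cell cannot be told apart.

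Among the 10 genes, H19, Igf2, Meg3 and Mest enclose microRNA precursors. The mature sequences of 4 precursors are shown because a change of such a host gene is often read as a change of its microRNAs. The sequences are from RefSeq (GRCm38.p6), 5′ to 3′, with the seed (bases 2 to 8) in capitals.
H19, mmu-miR-675-5p: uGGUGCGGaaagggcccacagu
H19, mmu-miR-675-3p: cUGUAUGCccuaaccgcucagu
Igf2, mmu-miR-483-5p: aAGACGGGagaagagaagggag
Igf2, mmu-miR-483-3p: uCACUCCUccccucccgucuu
Meg3, mmu-miR-770-5p: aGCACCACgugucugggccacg
Meg3, mmu-miR-770-3p: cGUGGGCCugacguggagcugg
Mest, mmu-miR-335-5p: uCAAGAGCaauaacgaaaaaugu
Mest, mmu-miR-335-3p: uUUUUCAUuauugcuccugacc
The 8 seeds shown were all different, so none was shared between the arms of a precursor or between these 4 precursors. A further precursor gene in Meg3, Mir1906-1, also stood at 0 in all libraries, and its mature sequences were not examined. The gene tables list the precursor genes Mir675, Mir483, Mir770 and Mir335 at 0 reads in all 8 libraries. The values below are therefore of the host transcripts, and the mature microRNAs were not measured.

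All 10 genes were detected in every library, from 41 reads of Cdkn1c in 1 library to 30307 reads of Grb10 in another. Per kilobase of exon (GENCODE M21), the mean level in FAP-ctrl was highest for H19 with 2559 ± 1267 normalized reads per kilobase (SD, n = 5), followed by Grb10 with 1877 ± 269. Igf2r with 952 ± 76.8, Mest with 804 ± 420, Plagl1 with 496 ± 144, Meg3 with 347 ± 151 and Peg3 with 216 ± 65.1 normalized reads per kilobase came next. Igf2 with 88.2 ± 26.2, Dlk1 with 62.5 ± 38.0 and Cdkn1c with 61.2 ± 22.2 were the lowest of the 10. Only Grb10 and Igf2r, and Peg3 and Igf2, were neighbours in this order whose ranges over the 5 libraries did not overlap. The receptor Igf2r was thus present at a higher level per kilobase than its ligand Igf2 in every FAP-ctrl library (832 to 1023 against 55.2 to 118).

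**Figure D1:**
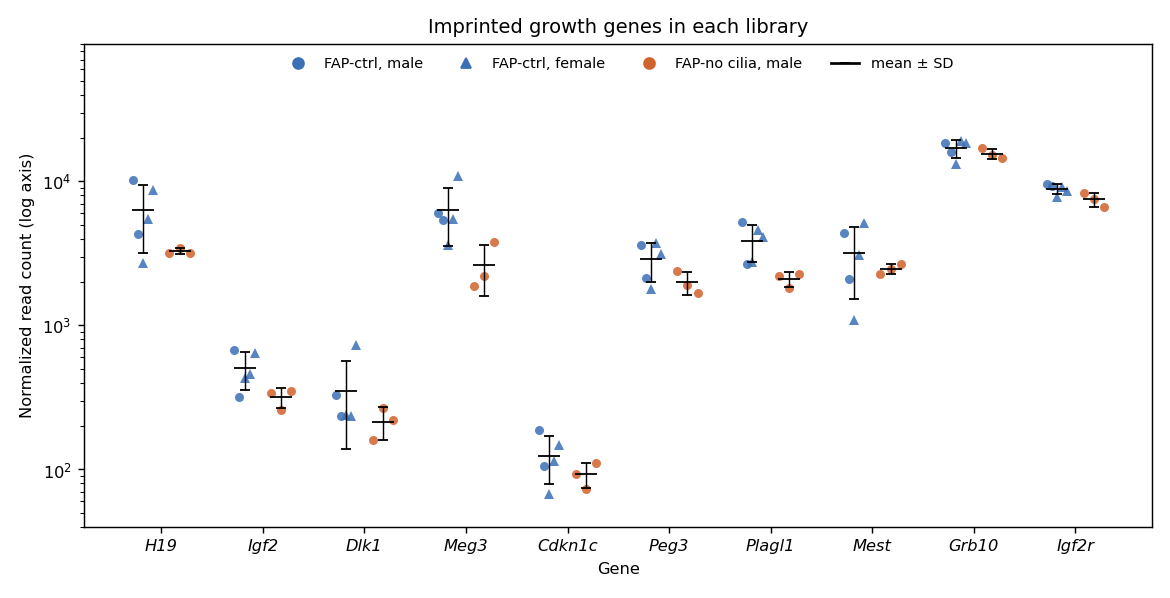
Normalized read count (log axis) of the 10 imprinted growth genes in each library, with blue circles for male and blue triangles for female FAP-ctrl libraries, orange circles for FAP-no cilia libraries, and bars for the mean ± SD. Only for Plagl1 are all 3 FAP-no cilia points below all 5 FAP-ctrl points, and for H19, Cdkn1c, Mest and Grb10 all 3 lie inside the FAP-ctrl range.

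The mean of FAP-no cilia was below that of FAP-ctrl for each of the 10 genes, by between 8.78% (Grb10) and 58.3% (Meg3). On the log2(value + 1) scale 10 of 10 differences were below 0, where 48.5% of the 14768 genes tested were, and the median difference was -0.54 against 0.01 for all genes tested. None of the 10 genes passed an adjusted p of 0.05 in limma-trend (0 of 10; 0.00677% of all genes were called lower, which was the pseudogene Rps24-ps3). The deleted gene Ift88 did not pass in limma-trend either (-1.14 ± 0.17, SE, adjusted p = 0.0895), while DESeq2 called it (adjusted p = 6.6e-06). Unadjusted, limma-trend gave 4 of the 10 a p under 0.05 (Igf2, Meg3, Plagl1 and Igf2r), with 6.09% of all genes lower at that level. DESeq2 on the recovered reads called 1 of the 10, Plagl1, with 0.698% of all genes called lower. Quasi-likelihood edgeR (TMM factors) called 0 of the 10, with 4 lower at an unadjusted p under 0.05, where 5.67% of all genes were. The groups did not overlap for 1 of the 10, again Plagl1, with 3.69% of all genes lower without overlap. The members share libraries, so their common direction is not 10 independent observations, and the direction of Mest reversed in 3 of the other 29 settings tried.

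**Figure D2:**
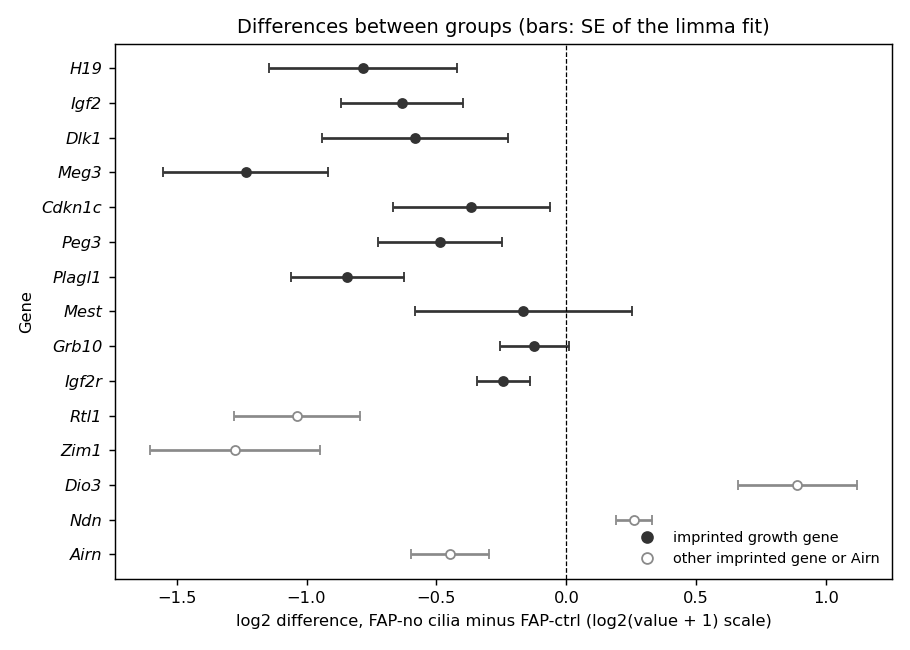
Differences between group means on the log2(value + 1) scale, FAP-no cilia minus FAP-ctrl, with bars for the SE of the limma-trend fit. Filled points are the 10 imprinted growth genes, all left of 0, and open points are 4 other imprinted genes and the antisense RNA Airn, of which Dio3 and Ndn lie right of 0.

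Of the transcription factors, Plagl1 (chr10:13060504-13131694, GRCm38), a regulator of other imprinted genes, had the clearest separation. Its normalized read counts were 5221, 2669, 2761, 4602 and 4142 in FAP-ctrl 1 to 5, against 2204, 1812 and 2269 in FAP-no cilia 1 to 3. Every FAP-no cilia library was below every FAP-ctrl library, although FAP-ctrl 2 and 3 stood much closer to the FAP-no cilia libraries than to the other FAP-ctrl libraries. The groups averaged 3879 ± 1130 (SD, n = 5) against 2095 ± 247 (SD, n = 3). The difference of -0.84 ± 0.22 (SE, log2 scale) did not pass in limma-trend (adjusted p = 0.232), while Plagl1 fell by 0.89 ± 0.22 on the log2 scale in DESeq2 (adjusted p = 0.0102). That call was lost when FAP-no cilia 1 (DESeq2 adjusted p = 0.0869) or FAP-no cilia 2 (DESeq2 adjusted p = 0.154) was left out. Among the 5 male libraries alone Plagl1 differed by -0.91 in DESeq2 (adjusted p = 0.0493).

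Peg3 (chr7:6703892-6730431), which encodes a zinc finger protein of growth and cell death pathways, had normalized read counts of 3591, 2138, 1794, 3717 and 3157 in FAP-ctrl, against 2378, 1918 and 1682 in FAP-no cilia. FAP-ctrl 2 and 3 lay among the FAP-no cilia libraries and the other FAP-ctrl libraries lay above all of these. The groups averaged 2879 ± 868 (SD, n = 5) against 1993 ± 354 (SD, n = 3), and the log2 difference was -0.49 ± 0.24 (SE, limma-trend adjusted p = 0.497).

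The 8 letters GGGGCCCC, a core of the sequence that PLAGL1 is known to bind and its own reverse complement, were searched in RefSeq promoter windows of 300 bases (250 before to 50 after a start). Windows were found for 8 of the 10 genes, 15 in all, and not for H19 and Cdkn1c. The letters occurred in 1 of the 15 windows, that of Peg3, and in 1.08% of 32851 windows of all genes. The match is printed in capitals within its surroundings, on the minus strand at chr7:6730583-6730650 (GRCm38.p6).
Peg3, 231 to 164 bases before the start: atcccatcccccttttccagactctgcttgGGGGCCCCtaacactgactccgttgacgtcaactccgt
This is a match of letters and no binding was measured. Member windows had a GC content of 49.7% to 80.0% with a median of 61.3%, against a median of 52.7% for all windows.

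Igf2 (chr7:142650766-142666816), the growth factor of the set, had normalized read counts of 674, 316, 431, 463 and 640 in FAP-ctrl, against 342, 258 and 349 in FAP-no cilia. FAP-ctrl 2 was the only FAP-ctrl library within the FAP-no cilia range. The groups averaged 505 ± 150 (SD, n = 5) against 316 ± 50.7 (SD, n = 3), and the log2 difference was -0.63 ± 0.23 (SE, limma-trend adjusted p = 0.386). Without FAP-ctrl 2, DESeq2 called Igf2 lower (-0.80, adjusted p = 0.0135).

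Igf2r (chr17:12682406-12769664), which carries IGF2 to the lysosome, was the least variable of the 10 in FAP-ctrl, with a coefficient of variation of 8.07%. It stood at 9525, 9331, 7745, 9102 and 8584 normalized reads in FAP-ctrl, against 8297, 7565 and 6638 in FAP-no cilia. Only FAP-ctrl 3 reached into the FAP-no cilia range. The log2 difference was -0.24 ± 0.10 (SE, limma-trend adjusted p = 0.432), and -0.16 without FAP-no cilia 3.

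Airn, the antisense RNA that silences the paternal Igf2r copy, overlaps Igf2r on the other strand, and the labels do not give the strand setting of the counting, so reads of the pair may not be fully told apart. Airn stood at 218, 166, 183, 218 and 187 normalized reads in FAP-ctrl, against 143, 124 and 160 in FAP-no cilia. These groups did not overlap, and a difference of -0.45 ± 0.15 (SE, log2 scale) did not pass in limma-trend (adjusted p = 0.334) or DESeq2 (adjusted p = 0.240).

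Grb10 (chr11:11930508-12038683) stood at 18473, 15907, 13296, 19217 and 18387 normalized reads in FAP-ctrl, against 16993, 15135 and 14550 in FAP-no cilia. All 3 FAP-no cilia libraries lay between the lowest and the highest FAP-ctrl library. The log2 difference was -0.12 ± 0.13 (SE, limma-trend adjusted p = 0.767), which was within its error. Leaving out 1 library moved it to between -0.21 (without FAP-ctrl 3) and -0.08 (without FAP-ctrl 4 or FAP-no cilia 3), and it was -0.19 without FAP-no cilia 1.

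H19 (chr7:142575529-142578143), whose gene lies 72.6 kb from Igf2 and shares enhancers with it, had normalized read counts of 10203, 4307, 2706, 5485 and 8771 in FAP-ctrl, against 3177, 3461 and 3207 in FAP-no cilia. FAP-ctrl 3 was below all 3 FAP-no cilia libraries and the other 4 FAP-ctrl libraries were above them. The groups averaged 6294 ± 3118 (SD, n = 5) against 3282 ± 156 (SD, n = 3). H19 varied 3.77-fold between the FAP-ctrl libraries and 1.09-fold between the FAP-no cilia libraries. Its difference of -0.78 ± 0.36 (SE, log2 scale) did not pass in limma-trend (adjusted p = 0.472). Without FAP-ctrl 3, DESeq2 called H19 lower (-1.14, adjusted p = 0.000889), so that library decided the call.

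Meg3 (chr12:109541001-109571726), the long noncoding RNA of the Dlk1-Dio3 region, differed most between the means. Its normalized read counts were 6008, 5388, 3620, 5512 and 10882 in FAP-ctrl, against 1887, 2192 and 3776 in FAP-no cilia. The groups overlapped only through FAP-no cilia 3, which stood just above FAP-ctrl 3. The groups averaged 6282 ± 2725 (SD, n = 5) against 2618 ± 1014 (SD, n = 3), and the log2 difference was -1.23 ± 0.32 (SE, limma-trend adjusted p = 0.232). DESeq2 did not call Meg3 with all libraries (-1.27, adjusted p = 0.152) and called it without FAP-ctrl 3 (-1.41), without FAP-ctrl 5 (-0.97) or without FAP-no cilia 3 (-1.63), with adjusted p-values of 0.0454, 0.0113 and 0.0311.

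Dlk1 (chr12:109452823-109463336), 77.7 kb from Meg3, had normalized read counts of 327, 234, 239, 237 and 731 in FAP-ctrl, against 159, 267 and 220 in FAP-no cilia. FAP-ctrl 5 held more than any other library, and FAP-no cilia 2 was above FAP-ctrl 2, 3 and 4. The groups averaged 353 ± 215 (SD, n = 5) against 215 ± 54.2 (SD, n = 3), and the log2 difference was -0.58 ± 0.36 (SE, limma-trend adjusted p = 0.588). Without FAP-ctrl 5 the difference was -0.28, and without FAP-no cilia 1 it was -0.38.

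Cdkn1c (chr7:143458339-143461050), a brake on the cell cycle in the same imprinted region of chromosome 7 as H19 and Igf2, had normalized read counts of 187, 106, 67.1, 115 and 149 in FAP-ctrl, against 93.3, 73.5 and 111 in FAP-no cilia. The FAP-no cilia values lay within the FAP-ctrl range, and FAP-ctrl 3 was the lowest library of all. The log2 difference was -0.37 ± 0.30 (SE, limma-trend adjusted p = 0.699). It was -0.20 without FAP-ctrl 1, -0.21 without FAP-no cilia 2 and -0.57 without FAP-ctrl 3.

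Mest (chr6:30723547-30748465), a marker of growing mesenchyme and fat, was the most variable in FAP-ctrl by the ratio of highest to lowest library, at 4.75-fold. Its normalized read counts were 4413, 2118, 1087, 3079 and 5166 in FAP-ctrl, against 2275, 2466 and 2673 in FAP-no cilia. The FAP-no cilia libraries were close together in the middle of the FAP-ctrl range. The log2 difference was -0.17 ± 0.42 (SE, limma-trend adjusted p = 0.922), and it was 0.00 without FAP-ctrl 1 and 0.06 without FAP-ctrl 5. Copg2, which overlaps Mest on the other strand, stood at 1128 to 1364 normalized reads over all libraries and differed by -0.00 (log2).

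Since all FAP-no cilia libraries were male, the 5 male libraries (2 against 3) were also compared alone. In limma-trend the differences were -1.02 for H19, -0.56 for Igf2, -0.39 for Dlk1, -1.19 for Meg3 and -0.62 for Cdkn1c. They were -0.49 for Peg3, -0.84 for Plagl1, -0.31 for Mest, -0.14 for Grb10 and -0.34 for Igf2r. All 10 stayed below 0 in the male libraries and none passed, with limma-trend adjusted p-values of 0.374 to 0.814. The 2 male controls stood apart. Relative to the FAP-ctrl mean (log2), the median of the 10 genes was 0.42 in FAP-ctrl 1. It was -0.38 in FAP-ctrl 2, against -0.42, -0.60 and -0.50 in FAP-no cilia 1 to 3. Mest in FAP-ctrl 2 (2118) was below all 3 FAP-no cilia libraries. H19 (4307), Meg3 (5388), Plagl1 (2669) and Igf2r (9331) in FAP-ctrl 2 were above all 3, and the remaining genes lay within the FAP-no cilia range. The size of the differences in males thus leaned on FAP-ctrl 1 for most of the genes, less so for Meg3 and Igf2r.

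The genes moved together between the FAP-ctrl libraries. Relative to the mean of FAP-ctrl on the log2(value + 1) scale, 10 of the 10 genes were above it in FAP-ctrl 1 and 9 in FAP-ctrl 5, with medians of 0.42 and 0.36. In FAP-ctrl 4, 5 of the 10 were above it. In FAP-ctrl 2 and FAP-ctrl 3, 1 and 0 of the 10 were above it, with medians of -0.38 and -0.53. By this median these 2 control libraries stood at the level of FAP-no cilia 1, 2 and 3, whose medians were -0.42, -0.60 and -0.50. Single genes differed from this. Plagl1 stood above all 3 FAP-no cilia libraries in both (-0.49 and -0.44), and Mest below all 3 in both (-0.38 and -1.35). Meg3 stood at -0.13 in FAP-ctrl 2 and -0.70 in FAP-ctrl 3, against -1.64, -1.42 and -0.64 in FAP-no cilia. FAP-ctrl 1, 4 and 5 held the highest of the 8 values for 5, 2 and 3 of the genes, and FAP-ctrl 3 the lowest for 4. The median over all genes tested stayed between 0.00 and 0.02 in each library.

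**Figure D3:**
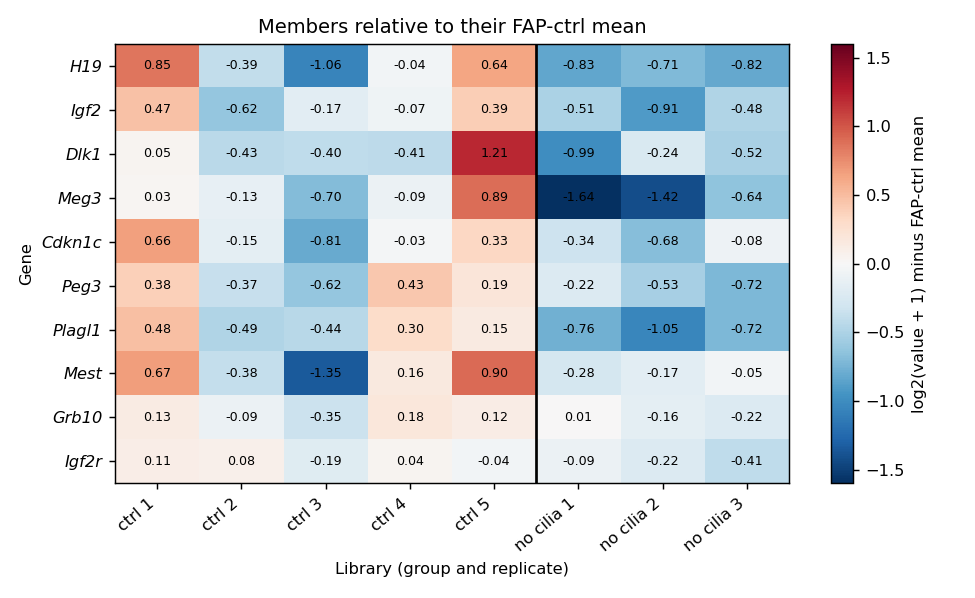
Each gene in each library as log2(value + 1) minus the mean of FAP-ctrl, with red above and blue below that mean and the vertical line between the groups. FAP-ctrl 1 and 5 are mostly red, and FAP-ctrl 2 and 3 are by the median of the genes about as blue as the 3 FAP-no cilia libraries. Plagl1 is bluer in all 3 FAP-no cilia libraries than in FAP-ctrl 2 and 3, and Mest is paler.

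Sex did not follow this order, as FAP-ctrl 1 and 2 were male and FAP-ctrl 3 and 5 female. The sum of 15 satellite cell and myoblast markers ran against it, with the lower sums where the imprinted genes were higher. FAP-ctrl 1, 4 and 5 had sums of 17602, 16505 and 13583 normalized reads, FAP-ctrl 2 and 3 had 19348 and 24806, and FAP-no cilia had 18792 to 26597. That sum was mostly Vcam1 (9019 to 19083) and Sdc4 (3683 to 6791), which other cells of muscle also express, while Pax7, Myf5, Mymk, Mymx and Calcr stayed under 10 normalized reads in all libraries. The sum of 15 muscle fibre markers was 293 to 349 in FAP-ctrl, against 163 to 234 in FAP-no cilia, with Ckm, Myh1, Myh4, Myh2, Tnnc2 and Pvalb under 10 in all libraries and Tnnc2 at 0. The sum of 8 Schwann cell markers was 5606 to 5810 and 6852 to 7515, most of it Pmp22, with Sox10 under 10 and Gfra3 at 0 in all libraries. Pmp22 stood at 4539 to 5122 normalized reads in FAP-ctrl, against 6122 to 6717 in FAP-no cilia. DESeq2 called it higher (adjusted p = 0.000476), and it was named after its values were seen. Ly6a also ran against the imprinted genes, as FAP-ctrl 1, 4 and 5 held 25060, 23649 and 27529 normalized reads of it. FAP-ctrl 2 and 3 held 45653 and 74893 of Ly6a, and FAP-no cilia held 39146 to 55262. Not all FAP markers shared this order. Col1a1 (181387 and 206912) and Col3a1 (554814 and 547398) were highest in FAP-ctrl 1 and 5. Both were lowest in FAP-ctrl 3 (84305 and 345528), and both were named after their values were seen.

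Lists of markers of further cell types leaned up or down in FAP-no cilia, with 0 of the markers called in limma-trend. DESeq2 called 1 tenocyte marker higher (0.525% of all genes were) and 0 macrophage, endothelial, erythroid or pericyte markers. All 15 of 15 macrophage markers were higher in FAP-no cilia (median log2 difference 0.94), and none of the 15 was under 10 in all libraries. Their sum was 674 to 3009 normalized reads in FAP-ctrl, against 1583 to 5197 in FAP-no cilia. The highest sum was that of FAP-no cilia 2 alone, while FAP-no cilia 1 and 3 (1583 and 1948) were below FAP-ctrl 1 (3009). All 8 of 8 tested tenocyte markers were higher (median 0.57), with sums of 21940 to 33069 and 27899 to 45389 and Scx under 10. Of 11 tested endothelial markers 9 were higher (median 0.34), with sums of 2440 to 4052 and 3099 to 4653 and Cldn5 under 10. All 4 of 4 tested erythroid markers were lower (median -1.97). Pericyte and smooth muscle markers lay on both sides (6 higher and 4 lower of 10), with sums of 4869 to 7894 and 6781 to 8205 and Kcnj8 and Higd1b under 10. The 4 sums given here overlapped between the groups. The part of these cell types in the values of the imprinted genes was not tested.

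Over the 8 libraries, all 45 pairs of the 10 genes had a Pearson r above 0 on the log2(value + 1) scale, with a median of 0.72, where 49.8% of all pairs of tested genes did and their median was -0.00. The range was 0.22 (Dlk1 and Igf2r) to 0.95 (Peg3 and Grb10), and the median Spearman rho was 0.67. The pairs share their libraries and are not independent of each other. In two-sided exact permutation tests over the libraries, 25 of the 45 pairs had a p of r under 0.05 and 4 had an adjusted p (Benjamini-Hochberg over the 45 pairs) under 0.05. By rho, 1 pair did. All 8 libraries were permuted regardless of group, so these p-values also take in a group difference that both genes of a pair share. The r of deviations from the group means was not tested. After each group's mean was subtracted, 43 of the 45 pairs had an r above 0, with a median of 0.67. Within the 3 FAP-no cilia libraries the genes did not move as 1 set: relative to the mean of FAP-ctrl (log2), Meg3 stood at -1.64, -1.42 and -0.64 and Peg3 at -0.22, -0.53 and -0.72, in opposite orders. Without the 2 libraries farthest from the median of the first gene, the median r was 0.55 and 43 of 45 were above 0. Neither sex has the 6 libraries needed for a correlation of its own (5 male and 3 female).

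**Figure D4:**
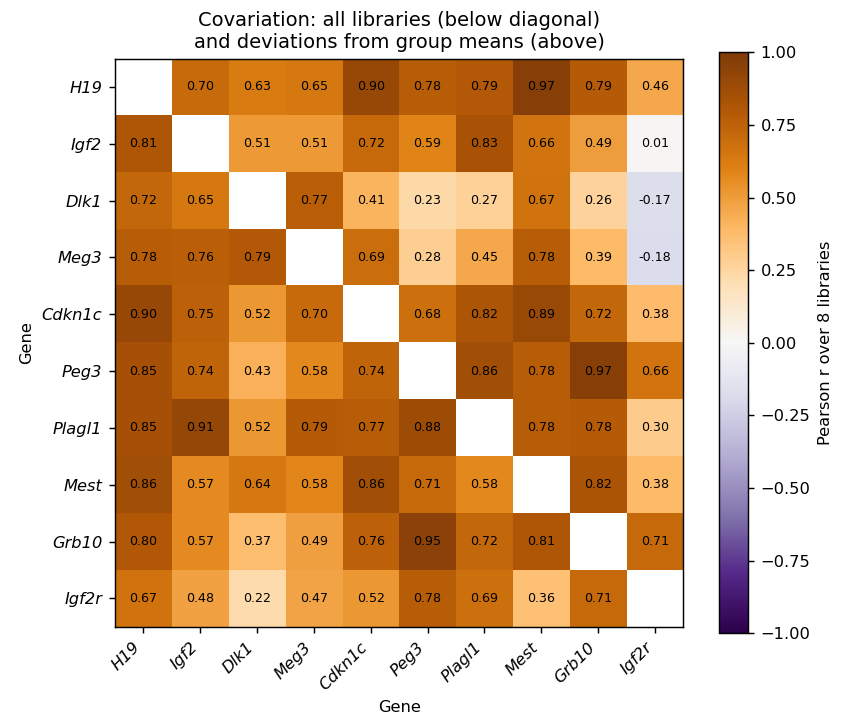
Pearson r of log2(value + 1) for each pair of the 10 genes, over all 8 libraries below the diagonal and for deviations from the group means above it. All values below the diagonal are above 0, and above it only Igf2r with Dlk1 and with Meg3 are under 0.

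Peg3 and Grb10, which lie on different chromosomes, were the closest pair, with r = 0.95 (exact permutation p = 0.000694, adjusted 0.0254) and rho = 0.98 (exact permutation p = 0.000397, adjusted 0.0179). The relation held without the 2 farthest libraries (r = 0.92) and for deviations from the group means (r = 0.97). Igf2 and Plagl1 had r = 0.91 and rho = 0.90 (exact permutation p = 0.00176 and 0.00456, adjusted 0.0254 and 0.0804), with r = 0.84 without the 2 farthest libraries. H19 and Cdkn1c, 880 kb apart on chromosome 7, had r = 0.90 and rho = 0.88 (exact permutation p = 0.00154 and 0.00724, adjusted 0.0254 and 0.0804). H19 and Mest had r = 0.86 and rho = 0.81 (exact permutation p = 0.00226 and 0.0218, adjusted 0.0254 and 0.122). Without FAP-ctrl 1 and 5, H19 had r = 0.68 with Cdkn1c and 0.66 with Mest.

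The neighbours H19 and Igf2 had r = 0.81 and rho = 0.57 (exact permutation p = 0.0159 and 0.151, adjusted 0.0687 and 0.200). Without FAP-ctrl 1 and 5 their r was 0.20. Leaving out the farthest libraries narrows the range, and the median r of the 45 pairs also fell, from 0.72 to 0.55. The neighbours Dlk1 and Meg3 had r = 0.79 and rho = 0.62 (exact permutation p = 0.0168 and 0.115, adjusted 0.0687 and 0.185). Without FAP-ctrl 5 and FAP-no cilia 1 their r was 0.16, with the same limit. H19 had the highest median r with the other 9 genes (0.81), and Dlk1 and Igf2r the lowest (0.52 each).

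**Figure D5:**
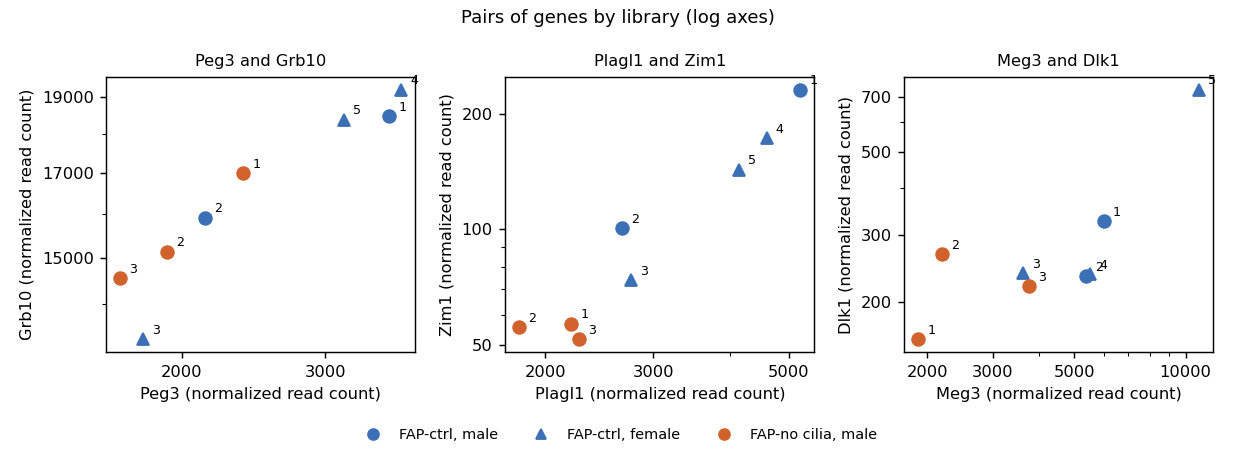
Normalized read counts (log axes) of Peg3 against Grb10, Plagl1 against Zim1 and Meg3 against Dlk1, with a point per library labelled by its replicate number, blue for FAP-ctrl (circles male, triangles female) and orange for FAP-no cilia. Peg3 and Grb10 rank the libraries almost alike, and in the third panel FAP-ctrl 5 stands alone at the top with 731 normalized reads of Dlk1.

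Genes with the most similar profile over the 8 libraries were listed for each of the 10 among 11039 genes with a mean of at least 50, as a description. Peg3 and Grb10 were each other's nearest gene of all those ranked. Plagl1 was nearest to Zim1 (r = 0.96), a zinc finger gene beside Peg3, followed by the noncoding RNA Gas5 (0.96) and Tm7sf3 (0.95). H19 was nearest to Tgfb3, a ligand of the TGF-beta family (0.98), Itm2a (0.98) and Fam167a (0.98). Igf2 was nearest to Tm7sf3, Nrk and Ddc (0.97, 0.96 and 0.93), and Plagl1 stood in place 6 of its list. Meg3 was nearest to Mapk8ip3, Ypel4 and Adamts15 (0.98, 0.97 and 0.97). Cdkn1c was nearest to Nrep, Angptl1 and Cilp (0.94 each), and H19 stood in place 20. Dlk1 was nearest to Zfp414, Gba2 and Reep6 (0.95, 0.95 and 0.94), and Mest to Vash1, Mertk and Cplx2 (0.97, 0.96 and 0.96). Igf2r was near to Mapkbp1 (0.96) and Htra1 (0.95). For the other genes the members were farther down the lists. The best-placed member was Cdkn1c for H19 (place 27) and Mest (place 63), and Peg3 for Igf2r (place 157). It was Meg3 for Dlk1 (place 165) and Dlk1 for Meg3 (place 384), so many genes outside the set were closer to these members.

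Other genes of the imprinted network lay on both sides of 0. Of 30 listed, 22 were tested, and 9 lay above and 13 below 0 in FAP-no cilia, with a median log2 difference of -0.02. In limma-trend 0 passed, with 3 higher and 5 lower at an unadjusted p under 0.05 (4.68% of all genes were higher and 6.09% lower at that level), and edgeR called 0 of all genes. DESeq2 called 1 higher and 1 lower, with 0.525% of all genes called higher and 0.698% lower. The groups did not overlap for 3 higher and 4 lower, with 3.62% of all genes higher and 3.69% lower without overlap.

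Zim1 (chr7:6671269-6696450) had normalized read counts of 231, 101, 73.6, 173 and 143 in FAP-ctrl, against 56.8, 55.6 and 51.7 in FAP-no cilia. It was lower in every FAP-no cilia library, and it fell by 1.41 on the log2 scale in DESeq2 (adjusted p = 0.0111; limma-trend -1.27 ± 0.33, adjusted p = 0.232). The DESeq2 call of Zim1 was lost without FAP-no cilia 1 or 2 (adjusted p = 0.109 and 0.0824).

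The Dlk1-Dio3 region of chromosome 12 held genes on both sides of 0. Rtl1 (chr12:109589193-109600330), a retrotransposon-derived gene, had 54.9, 42.9, 43.8, 45.1 and 62.0 normalized reads in FAP-ctrl, against 20.2, 21.5 and 29.8 in FAP-no cilia, and the log2 difference was -1.04 ± 0.24 (SE, limma-trend adjusted p = 0.211; DESeq2 adjusted p = 0.0702). Dio3 (chr12:110279068-110281097), the deiodinase that inactivates thyroid hormone, had 290, 258, 221, 166 and 139 in FAP-ctrl, against 381, 430 and 346 in FAP-no cilia. Neither gene overlapped between the groups, and Dio3 was higher in FAP-no cilia (limma-trend 0.89 ± 0.23, adjusted p = 0.232; DESeq2 0.84, adjusted p = 0.0386). The DESeq2 call of Dio3 was lost without FAP-no cilia 1 or 2 (adjusted p = 0.261 and 0.308). Ndn, a growth-restraining gene, had 1953 to 2075 in FAP-ctrl, against 2298 to 2547 in FAP-no cilia, and the log2 difference was 0.26 ± 0.07 (SE, limma-trend adjusted p = 0.236; DESeq2 adjusted p = 0.0568).

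Among 16 tested genes of IGF signalling outside the set, 9 lay above and 7 below 0, with a median of 0.04, a sign that turned with sex as a covariate (-0.08), in the male libraries (-0.08) and without FAP-ctrl 3 (-0.07). In limma-trend 0 of the 16 passed. At an unadjusted p under 0.05, 3 were higher and 0 lower, where 4.68% and 6.09% of all genes were. DESeq2 called 2 higher, with 0.525% of all genes called higher. Igfbp3, a carrier of IGFs in the extracellular space, stood at 1872 ± 141 (SD, n = 5) and 2962 ± 565 (SD, n = 3) normalized reads, and the log2 difference was 0.65 ± 0.12 (limma-trend adjusted p = 0.146; DESeq2 adjusted p = 0.000567). Grb14, a relative of Grb10, differed by 1.03 ± 0.16 (limma-trend adjusted p = 0.0895; DESeq2 adjusted p = 1.23e-05), while Igfbp7 differed by 0.35 ± 0.14 and the insulin receptor gene Insr by -0.16 ± 0.11 (limma-trend adjusted p = 0.409 and 0.610). The ligand gene Igf1 stood at 5523 ± 1731 and 4564 ± 969 (log2 difference -0.24 ± 0.24) and its receptor gene Igf1r at 897 ± 62.3 and 820 ± 83.1 (-0.13 ± 0.10), both named after their values were seen.

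Of 10 tested CDK inhibitors and relatives of Dlk1, 4 lay above and 6 below 0, with a median of -0.02, a sign that differed between settings. In limma-trend 0 passed. At an unadjusted p under 0.05, 2 were higher and 0 lower, where 4.68% and 6.09% of all genes were. DESeq2 called 1 higher, with 0.525% of all genes called higher. Cdkn1a, an inhibitor of the same family as Cdkn1c, stood at 2758 ± 437 (SD, n = 5) and 4387 ± 1149 (SD, n = 3) normalized reads, with no overlap between the groups. Its log2 difference was 0.65 ± 0.17 (limma-trend adjusted p = 0.236; DESeq2 adjusted p = 0.0290), where that of Cdkn1c was below 0. Cdkn2c differed by 0.24 ± 0.11, Cdkn2b by 0.43 ± 0.22 and Notch2 by 0.23 ± 0.12, none of them past the threshold in limma-trend or DESeq2.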

How the data were processed

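The deposited files hold, for each library, a signal per gene that the authors made by aligning single-end reads of 50 bases with STAR to GRCm38 and dividing read counts by DESeq size factors, per the series design text. Neither the counting tool nor its strand setting is given in the sources used here. Whole reads were recovered from the values (100% whole within 0.01 reads). Genes reaching 10 in 3 or more libraries (14768) were compared on log2(value + 1) by limma-trend with Benjamini-Hochberg adjustment at 0.05; edgeR and DESeq2 ran on the recovered reads. Of 37991 identifiers, 32919 were matched to symbols. The labels do not say that libraries came from separate animals, so p-values measure the spread between these libraries. FAP-ctrl held libraries of both sexes and so came from more than 1 animal, but part of the spread may be technical. Members and lists were chosen with earlier results of these data known. Named genes were the 10 members, Ift88, up to 4 genes with the smallest p of each list that holds no cell markers, 2 defining genes of marker lists where their levels bear on a result, and the 3 most similar profiles of each member; some genes of this rule and of the lists are not reported here. The fits, tested on simulated data, used DESeq2 1.42.0, edgeR 4.0.16 and limma 3.58.1 under R 4.3.3. Correlations and figures used scipy 1.17.1, pandas 2.3.3, numpy 2.4.6 and matplotlib 3.10.9 under Python 3.11.15.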

Additional observations from a re-analysis of the deposited data

Results flagged for a closer look

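Dlk1 in FAP-ctrl 5, at 731 normalized reads, lay farther from the other FAP-ctrl libraries (234 to 327) than Dixon's 95% limit for 5 samples allows. Chance gives such a value in about 1 in 20 groups, and 10 genes were looked at.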

How the results depend on the processing

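Of 29 other settings, 10 were added after the data were seen (the male libraries alone and DESeq2 with libraries left out). All members except Mest stayed below 0 in all 29; Mest was 0.19 with the replicate block and 0.0035 and 0.060 without FAP-ctrl 1 and 5 in limma-trend, which ranged from -0.50 to 0.06 with 1 library left out. Over all genes, 1 passed in limma-trend, 0 in edgeR with TMM or RLE factors (1480 and 1482 at an unadjusted p under 0.05), 177 in DESeq2, and 2 (limma-trend) and 111 (DESeq2) in the male libraries. Leaving out 1 library gave 1 to 3 in limma-trend. In DESeq2 it gave 112, 192, 304, 119 and 143 without FAP-ctrl 1 to 5, and 50, 72 and 338 without FAP-no cilia 1 to 3. DESeq2 called 1 member with all, with male libraries and without FAP-ctrl 1 or 4, 2 without FAP-ctrl 2, FAP-ctrl 5 or FAP-no cilia 3, 4 without FAP-ctrl 3, and 0 without FAP-no cilia 1 or 2. Past the threshold in DESeq2 alone were Plagl1 (-0.89, male libraries -0.91, -0.76, -1.002, -0.99, -0.82 and -0.87 without FAP-ctrl 1 to 5, -0.96 without FAP-no cilia 3), H19 (-1.14) and Peg3 (-0.67) without FAP-ctrl 3, Igf2 (-0.80) without FAP-ctrl 2, and Meg3 (-1.41, -0.97 and -1.63 without FAP-ctrl 3, FAP-ctrl 5 and FAP-no cilia 3). The cause was not tested. Same-numbered libraries had correlations of -0.07, 0.14 and 0.04, so the numbers do not pair them. The replicate block left the all-gene count at 1 and gave a median r between members of 0.85 with 39 of 45 pairs above 0. For that r only FAP-ctrl 1 to 3 and FAP-no cilia 1 to 3 were used. With group and pair means removed, same-numbered libraries hold mirrored values, which pushes r towards its limits. This median r cannot be set beside that over all libraries. Leaving out 1 library gave a median r of 0.64 to 0.77. The median of the members was -0.30 with the block and -0.36 without FAP-ctrl 5. The number of FAP-no cilia libraries (3, the lowest of 15.3 M reads) limits the precision.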
